A study of Mus musculus with 2 samples.

Results

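The early B cell factor (EBF) family of transcription factors and its zinc finger partners were followed in marker-sorted bone cells of mouse embryos that carry 1 or no working copy of Ebf2. The genes were Ebf1, Ebf2, Ebf3, Ebf4, Zfp423 and Zfp521, and a probe set (a group of short oligonucleotides that report 1 transcript) was taken where the platform annotation names exactly 1 of these symbols and nothing else. This gave 6 of 18194 genes and 15 of 34958 probe sets with 1 symbol. All 15 are described on both arrays.

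Both groups were C57Bl/6 embryos at stage E18.5 (late gestation), Ebf2+/- in the one and Ebf2-/- in the other, with 1 Affymetrix mouse genome array for each genotype. In both, cells prepared from the tibia and femur were loaded with FDG, a substrate that fluoresces once the lacZ product cleaves it, sorted for an Ebf2-lacZ marker, and expanded without passage in alpha MEM with 10% serum, so the sort used the locus that the genotype alters. Each genotype is labelled as 3 mice, without a word on pooling, and wild-type cells were not analysed here. With 1 array per genotype there was no replicate spread to test against, so the values are single measurements, no p-value is given, and a ratio describes these 2 arrays only. By its title, the series asks how Ebf2 acts on haematopoietic stem cells from outside those cells.

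EBF proteins bind DNA as dimers through a zinc-coordinating domain and a helix-loop-helix dimerization domain, and recognise a palindromic site. Ebf1 is known for committing lymphoid progenitors to the B cell fate and also acts in adipocytes and stromal cells, Ebf2 for brown fat and bone, and Ebf3 for the marrow stroma. Zfp423 and Zfp521 are related multi-zinc-finger proteins that bind EBF proteins and can restrain them. Zfp423 also joins Smad proteins in the response to BMP and promotes fat cell commitment, and Zfp521 is known to restrain Runx2 in osteoblasts.

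RefSeq promoter windows (build GRCm38.p6) are described here for 4 of the 6 genes, Ebf1, Ebf3, Ebf4 and Zfp423, as 6 windows of which the 250 bases before the start site were read. The 3 shown belong to genes with higher signal on the knockout array, and show where the palindromic EBF core CCCNNGGG, which reads the same on both strands, occurs in them. Capitals mark the core.
Ebf3, chr7:137314446-137314695, minus strand: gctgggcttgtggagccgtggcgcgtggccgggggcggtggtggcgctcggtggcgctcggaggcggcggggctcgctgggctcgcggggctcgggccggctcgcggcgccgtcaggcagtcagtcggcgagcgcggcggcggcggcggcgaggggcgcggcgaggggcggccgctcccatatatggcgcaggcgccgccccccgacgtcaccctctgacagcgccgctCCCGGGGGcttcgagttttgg
Zfp423, chr8:87804440-87804689, minus strand: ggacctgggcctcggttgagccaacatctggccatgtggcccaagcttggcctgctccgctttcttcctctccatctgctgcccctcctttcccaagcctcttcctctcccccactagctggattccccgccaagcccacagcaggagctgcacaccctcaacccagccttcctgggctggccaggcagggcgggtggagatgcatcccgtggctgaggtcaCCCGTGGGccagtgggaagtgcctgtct
Ebf1, chr11:44617850-44618099, plus strand: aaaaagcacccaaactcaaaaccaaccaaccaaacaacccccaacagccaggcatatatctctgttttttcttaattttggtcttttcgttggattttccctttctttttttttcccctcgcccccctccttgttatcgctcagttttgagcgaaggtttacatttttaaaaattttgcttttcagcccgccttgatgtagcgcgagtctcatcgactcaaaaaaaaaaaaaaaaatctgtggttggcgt

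The Ebf3 window held 1 core, which begins 21 bases before the start site. One of the 2 windows of Zfp423 held 1 core, which begins 28 bases before its start site. The other Zfp423 window, both windows of Ebf1 and the window of Ebf4 held 0. Of all 32851 windows of this length 11.8% held the core, and 0.779% held it between a T and an A (TCCCNNGGGA, a subset of the matches to the core), a form found in 0 of the 6 windows. The windows differed in composition: 80.0% of the Ebf3 bases were G or C, with 43 CpG pairs, more than in 99.3% of windows, while the Ebf1 window shown had 40% and 9 CpG pairs (medians over all windows 52.4% and 6). A match of letters is a description and does not show binding.

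Signals are the authors' MAS5 intensities. Background was set by a floor on each array, the 95th percentile of 86 probe sets for chemosensory (smell, pheromone and taste) receptors. The floor was 17.8 for Ebf2+/- and 23.8 for Ebf2-/-. Where a pair of signals is given, the first is that of the heterozygote (Ebf2+/-) array and the second that of the knockout (Ebf2-/-) array. Of the 15 probe sets 10 were above the floor on both arrays, 3 on 1 array and 2 on neither. All 10 probe sets above the floor on both arrays had the higher signal in the knockout, by 1.59-fold to 4.52-fold, and 9 of them by at least 2-fold, the reference size used here. Of all 16457 such probe sets on the arrays, 6.10% were at least 2-fold higher. The 10 belong to 4 genes, and some of those of Ebf1 and of Ebf3 share a design sequence, so they are not independent readings. By the brightest probe set of each gene, 3 of the 6 genes (Ebf1, Ebf3 and Zfp423) passed 2-fold upwards in the knockout and 0 downwards, against 6.30% and 3.46% of the 11785 genes above the floor on at least 1 array. The median log2 ratio of knockout over heterozygote was 0.93 over the 6 genes, with Ebf2 and Ebf4 entering at values set by the floor, 1.25 over the 4 genes above the floor on both arrays, and 0.03 over all measured genes.

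**Figure D1:**
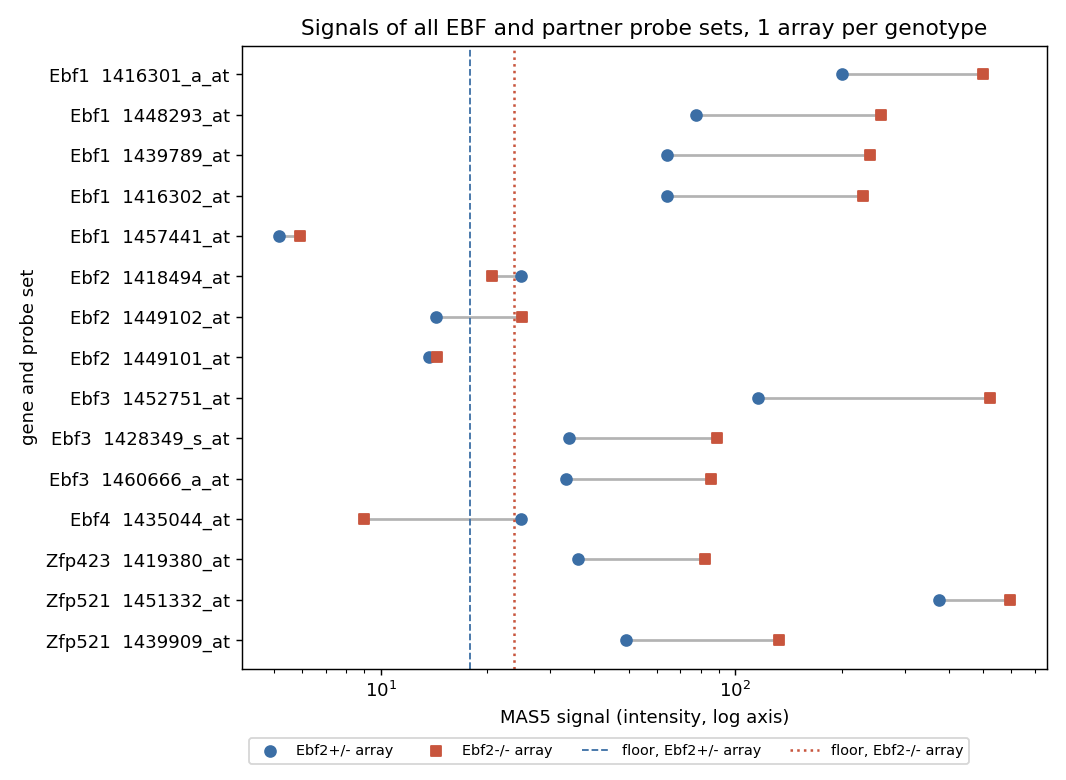
MAS5 signal (log axis) of each of the 15 probe sets, as circles for the Ebf2+/- array and squares for the Ebf2-/- array, with the floor of each array as a vertical line. The 10 probe sets to the right of both floors all have the square further right, and the 3 probe sets of Ebf2 lie close to the floors.

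Ebf2 itself gave signals close to background, with the 3 probe sets designed on 1 shared sequence. Probe set 1418494_at read 24.9 in the heterozygote, above the floor and above all 86 background probe sets, and 20.6 in the knockout, below the floor. Probe set 1449102_at read 14.4 and 25.1, so that its knockout signal alone exceeded the floor, while 1449101_at read 13.7 and 14.4, below the floor on both. The signals do not separate the genotypes: set to the floor, the first is at least 1.04-fold lower and the second at least 1.41-fold higher in the knockout, and the summed signal of the 3 was 52.9 and 60.0. Where these probe sets lie relative to the altered part of the gene is not known here, so they are no check of the genotype.

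Ebf1 had 5 probe sets. Its brightest, 1416301_a_at, read 199.6 and 500.3, 2.51-fold higher in the knockout. Probe set 1448293_at read 77.3 and 258 (3.34-fold), and 1416302_at read 64.2 and 229 (3.57-fold). These 3 were designed on 1 shared sequence and so are not independent of each other. Probe set 1439789_at, designed on another sequence, read 64.2 and 239.8 (3.74-fold). The knockout signal was thus the higher one for all 4, and the log2 ratio averaged 1.70 ± 0.26 (SD, 4 probe sets on the same 2 arrays). The fifth, 1457441_at, read 5.16 and 5.91, below the floor on both arrays.

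Ebf3 had the largest ratio of the family. Probe set 1452751_at read 116 and 523, 4.52-fold higher in the knockout. The others were dimmer and gave smaller ratios: 1428349_s_at read 33.9 and 88.6 (2.61-fold) and 1460666_a_at read 33.4 and 85.2 (2.55-fold). The log2 ratio averaged 1.64 ± 0.47 (SD, 3 probe sets, 2 of them designed on 1 shared sequence). The Ebf1 probe sets ranged from 1.33 to 1.90 and those of Ebf3 from 1.35 to 2.18, so the ratios of the 2 genes overlapped between probe sets and their order is not settled. Of the 1503 genes on the arrays with 3 or more probe sets above the floor on both, 1.66% (25 genes) had all of them at least 2-fold higher, and Ebf1 and Ebf3 are among these 25. Probe sets ending in _s_at, _x_at or _a_at can match several transcripts. Without them, 6 rather than 9 probe sets of the whole group were at least 2-fold higher. Ebf3 then kept only 1452751_at, too few for a place among the 25, and Ebf1 lost its brightest, 1416301_a_at.

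Ebf4 was represented by 1 probe set. It read 24.9 in the heterozygote, above the floor, and 8.998 in the knockout, below the floor, which bounds the difference at 1.05-fold lower or more. The ratio of the signals as deposited was 0.361, but 21 of the 86 background probe sets were as bright as the knockout signal or brighter. Ebf4 was near background on both arrays, and its direction rests on 1 dim probe set.

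Zfp423 also had 1 probe set, which read 36.1 and 82.1, 2.27-fold higher in the knockout. Both signals stood above the floors, by 2.03-fold and 3.45-fold. In this dim range the ratio is less certain: probe sets of 1 gene had a pooled SD of 0.49 (log2) over the 736 genes whose probe sets above the floor all had a mean signal under 100, and 0.34 over the 1473 genes at or above it. With a pseudocount of 50 added to both signals, the log2 ratio of Zfp423 was 0.62, under 2-fold.

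Zfp521 had 2 probe sets, designed on different sequences, that differed in the size of the ratio. The brighter, 1451332_at, read 374 and 594, 1.59-fold higher in the knockout, and 1439909_at read 49.1 and 133, 2.71-fold higher. The direction was shared and the 2-fold size was not. The log2 ratios of 0.67 and 1.44 lay 0.77 apart, and of the 2616 genes with 2 probe sets above the floor on both arrays 17.6% had a difference at least as large (median 0.37). As a mean over both probe sets the log2 ratio was 1.05.

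By the size of the ratio among the 10057 genes above the floor on both arrays, Ebf3 ranked 71st from the highest, Ebf1 316th, Zfp423 415th and Zfp521 1261st, each by its brightest probe set. These ranks order differences between 2 arrays. The brightest probe set gave the smallest log2 ratio of Ebf1 (1.33, range to 1.90) and the largest of Ebf3 (2.18, range from 1.35). The ranks therefore do not settle the order of these 2 genes. The signals of the 6 genes were not ordered against each other, because probe sets differ in how brightly they report a transcript.

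**Figure D2:**
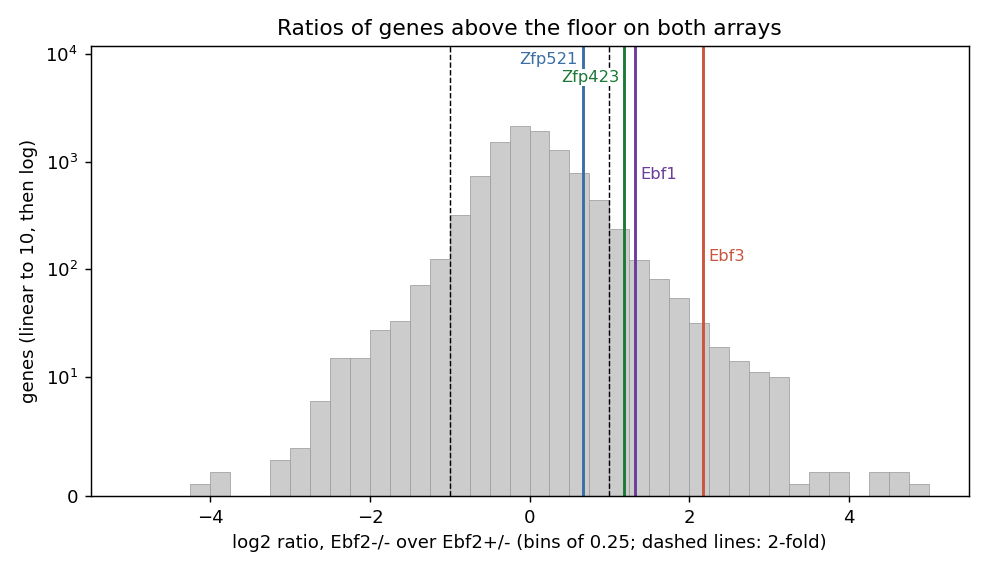
Number of genes (linear to 10, then log) by log2 ratio of Ebf2-/- over Ebf2+/- in bins of 0.25, for the 10057 genes above the floor on both arrays, with vertical lines at Zfp521 (0.67), Zfp423 (1.18), Ebf1 (1.33) and Ebf3 (2.18). All 4 lie on the side higher in the knockout, and Zfp521 lies inside the dashed 2-fold lines.

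With 2 arrays the likeness of another gene to Ebf1 or Ebf3 is only the closeness of 1 ratio, that of the brightest probe set of each gene. For Ebf1 this was 2.51-fold, while its other probe sets above the floor reached 3.74-fold. For Ebf3 it was 4.52-fold, while its others were as low as 2.55-fold, so another probe set would give other neighbours. Among the 25 genes with 3 or more probe sets all at least 2-fold higher, the 4 nearest to Ebf1 were the matricellular protein Ccn1 (2.52-fold), the lymphatic growth factor Vegfc (2.47-fold), the helix-loop-helix inhibitor Id4 (2.43-fold) and the regulatory kinase subunit Pik3r1 (2.43-fold). The 4 nearest to Ebf3 were Vegfd, a relative of Vegfc (4.44-fold), the surface protein Cd99 (4.23-fold), the chemokine Cxcl1 (4.75-fold) and the collagen Col8a1 (1444 and 7218). The smallest fold over the probe sets of each was 3.79 for Vegfd, 3.77 for Cd99, 2.05 for Cxcl1 and 2.10 for Col8a1.

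Genes that work with these factors, or are known targets, were taken from 7 lists. The lists were chosen with earlier results of these arrays known, so their counts are descriptions, and each is read beside the 6.30% of all measured genes that were at least 2-fold higher and the 3.46% that were at least 2-fold lower. A list gene counts as measured by its brightest probe set. The highest median was that of 16 adipogenic regulators and adipocyte genes. Of 12 measured, 8 passed 2-fold upwards and 0 downwards, and their median log2 ratio was 1.66 against 0.03 for all measured genes (1.33 with a pseudocount of 50). Without probe sets ending in _s_at, _x_at or _a_at, which can match several transcripts, 9 were measured and 5 passed. The fatty acid binding protein Fabp4 read 18.4, barely above the floor, and 552. Its log2 ratio of 4.91 was 3.14 with a pseudocount of 50 and 1.98 as a mean over its 4 probe sets, of which 2 were below the floor on both arrays. Those 2 entered the mean at 0.42, from the floors alone. The preadipocyte protein Dlk1 read 80.7 and 914, a log2 ratio of 3.50. It was 1.96 as a mean with a second probe set that was below the floor on both arrays and so also entered at 0.42. The progenitor receptor Pdgfra (158 and 860.2) had a log2 ratio of 2.45, and of 1.47 as a mean over 3 probe sets. The others were the adipogenic factor Cebpa (39.2 and 349.6, a log2 ratio of 3.16 and of 2.16 with the pseudocount), Cebpd (325 and 1103) and the lipase Lpl (611 and 1803). Pparg, the central adipogenic receptor and a gene that Zfp423 is known to induce, read 42.9 and 92.0, 2.15-fold higher, but its log2 ratio was as low as 0.61 under other settings. Adipoq read 5.04 and 74.7 and was at least 4.19-fold higher (a log2 ratio of 2.07). Its log2 ratio was 1.48 with the floor 1.5 times higher and 1.18 with the pseudocount. Brown fat genes, with which Ebf2 is usually associated, had low signals: Ucp1 (0.877 and 0.731), Cidea (12.6 and 10.3) and Ppargc1a (17.6 and 9.83) were below the floor on both arrays, and Prdm16 read 64.3 and 40.5.

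Of the Smad and BMP genes, with which Zfp423 acts, 12 were measured, and 3 passed 2-fold upwards, 0 downwards and 9 differed by less. The shares over all measured genes were 6.30% and 3.46%. The median log2 ratio of the list was 0.08, and over the alternatives it lay between -0.10 (arrays scaled to the spike-in transcripts) and 0.31 (without probe sets ending in _s_at, _x_at or _a_at). The ligand Bmp4 read 506 and 1504 (2.97-fold higher), Id4 read 318 and 773 (2.43-fold), and the inhibitory Smad7 read 68.7 and 140.5 (2.05-fold), while its second probe set read 41.9 and 33.4, so that the mean log2 ratio over both was 0.35. The classical BMP target genes Id1 (498 and 436), Id2 (473 and 458), Id3 (1942 and 2117) and Smad6 (301 and 307) differed by 1.02-fold to 1.14-fold by these probe sets. Of the 3 probe sets of Id2 the dimmest read 26.1 and 41.0, a log2 ratio of 0.65.

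The nucleosome remodelling complex NuRD, which Zfp521 recruits, was well above the floor, with all 13 listed subunits measured. Only Mta1 (111 and 250.4, 2.25-fold) passed 2-fold, but with the spike-in scaling or a pseudocount of 50 it was 0 subunits, and 3 (with Chd4 and Rbbp4) without probe sets ending in _s_at, _x_at or _a_at. The median log2 ratio was 0.21, and 0.03 with the spike-in scaling.

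Of 14 B lineage genes on the arrays 4 were measured, 0 of them past 2-fold (with no floor, Blnk and Ikzf1 were). The measured genes were Tcf3 (173 and 225), Foxo1 (298 and 224), Blnk (34.6 and 10.5) and Ikzf1 (25.6 and 11.9), the last pair above the floor in the heterozygote only. Known EBF1 targets that define B cells were below the floor on both arrays, among them Cd79a (14.8 and 3.30), Cd79b (0.896 and 1.48), Vpreb1 (3.78 and 17.0) and Pax5 (10.2 and 2.43). Ebf1 was thus above background in RNA in which these B lineage genes were not.

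In the stromal niche list, tied to Ebf1 and Ebf3 in the marrow, 2 of 10 measured genes passed 2-fold upwards and 0 downwards, and the median was 0.35. With the spike-in scaling 1 passed upwards and 1 downwards, with a median of 0.18. The chemokine Cxcl12 read 1177 and 5367 (4.56-fold higher) and the growth factor Csf1 657.7 and 1421 (2.16-fold, under 2-fold with the spike-in scaling at a log2 ratio of 0.94). The ectonucleotidase Nt5e read 94.7 and 48.8, a log2 ratio of -0.96, which was -1.13 with the spike-in scaling and -0.03 as a mean over its 3 probe sets. That mean takes in 1 probe set below the floor on both arrays, which enters at 0.42 from the floors alone. Another was above the floor in the knockout only. The factor Foxc1 read 677 and 425. The receptor Lepr, a marker of adult marrow stroma, was below the floor on both arrays by its brightest probe set (13.7 and 7.70), and 1 of its 4 probe sets (24.4 and 0.788) was above the floor in the heterozygote. In the osteoblast list 3 of 10 measured genes passed 2-fold upwards (1 to 3 over the settings) and 2 downwards (median 0.61, and 0.39 to 0.61 over the settings). Tnfrsf11b, the gene of osteoprotegerin and a known Ebf2 target in osteoblasts, read 122 in the heterozygote and 23.0, which is below the floor, in the knockout, a difference of 5.11-fold or more. Msx2 read 992 and 200.5 (4.95-fold lower). The 3 genes counted upwards each lost the 2-fold size under some setting. Twist2, an inhibitor of Runx2 function, read 43.6 and 102, a log2 ratio of 1.23 that was 0.70 with the pseudocount. The alkaline phosphatase Alpl read 25.4 and 51.8 (2.04-fold), and 0.43 on the log2 scale with the pseudocount. The collagen Col1a1 read 5478 and 12784 (2.33-fold), but its second probe set was lower in the knockout (1375 and 982), and the mean log2 ratio of the 2 was 0.37. Of 7 measured helix-loop-helix relatives, Max, the Myc partner (109 and 27.2, 4.02-fold lower), was the only one past 2-fold (median 0.41).

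**Figure D3:**
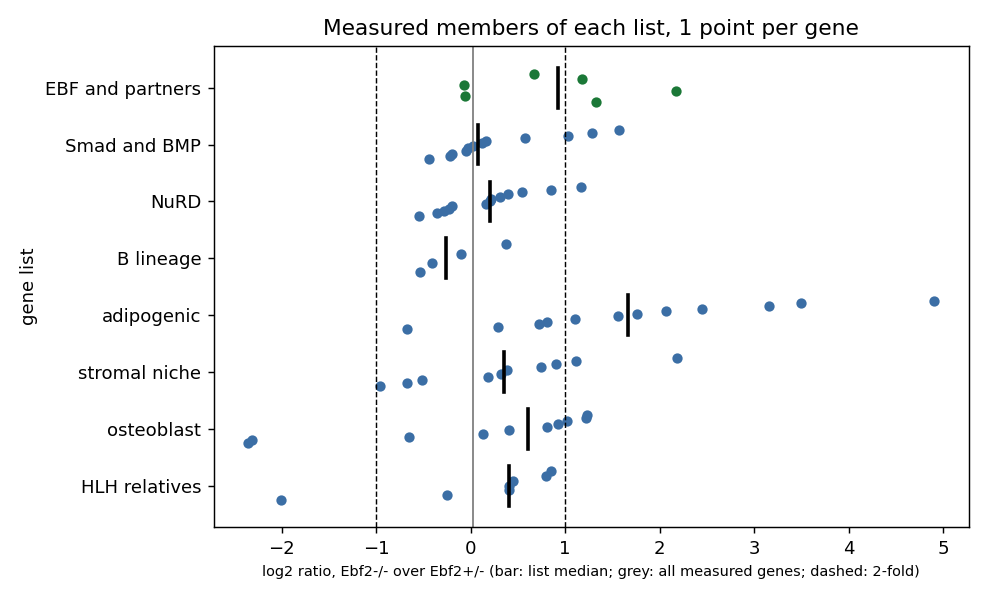
Log2 ratio of Ebf2-/- over Ebf2+/- for each measured gene of the EBF group (green) and of 7 gene lists (blue), 1 point per gene, with black bars at the medians, a grey line at the median of all measured genes (0.03) and dashed lines at 2-fold. The adipogenic median (1.66) lies beyond 2-fold and the medians of the other 6 lists lie between -0.26 and 0.61.

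Other features of the arrays moved with these values. The marker counts are read beside the 3.46% of all measured genes that were at least 2-fold lower and the 6.30% that were higher. Leukocyte and macrophage markers were lower in the knockout: 10 of 11 were above the floor on both arrays, all 10 were at least 2-fold lower, and the summed signal of the 11 was 7579 and 1799, with Itgam below the floor on both. With a pseudocount of 50, or as a mean over probe sets, 9 of the 10 were at least 2-fold lower. Of 7 measured chondrocyte markers 5 were at least 2-fold lower (summed signal of 8 markers 12314 and 3724, Matn1 below the floor). Col2a1 gave most of that sum (8542 and 2592). The other measured markers were Sox9 (213 and 209, with another probe set at 142 and 262) and Comp (232 and 395). Of 5 adipocyte markers 5 were at least 2-fold higher (717 and 2871), or 4 with the pseudocount or the spike-in scaling. All 5 are genes of the adipogenic list already counted. B cell markers were measured for 0 of 3 genes, with signals from 0.896 to 14.8 in the heterozygote and 1.48 to 3.53 in the knockout. Of the osteoblast markers, which the osteoblast list also holds, Col1a1, Alpl and Sp7 were above the floor on both arrays, 2 of these 3 were at least 2-fold higher (1 or 2 over the settings), and Ibsp was below the floor on both. Of the neuron and Schwann cell markers 3 of 4 were measured and lower in the knockout, with S100b (330.3 and 141) past 2-fold. With the pseudocount S100b was just under 2-fold, at a log2 ratio of -0.997. The log2 ratio of Sox10 (116 and 65.6) was -0.82, and 0.05 as a mean over its probe sets. That mean takes in 1 probe set below the floor on both arrays, which enters at 0.42 from the floors alone. Another was above the floor in the knockout only. The endothelial Tek (3.53 and 46.5) and the muscle actin Acta1 (45.0 and 105) were at least 2-fold higher, though not with the pseudocount, while the endothelial Kdr (33.9 and 3.32) was above the floor in the heterozygote only, and the endothelial Pecam1 and Cdh5, the muscle genes Myod1, Myog and Des and the erythroid Klf1 were below the floor on both arrays. In bulk RNA, fewer cells of a type and less RNA per cell cannot be told apart. RNA quality, read as the ratio of 3' over 5' control signals, differed between the arrays: beta-actin gave 1.97 and 2.79, and Gapdh 1.30 and 1.599. The part of these features in the ratios of Ebf1, Ebf3, Zfp423 and Zfp521 was not tested.

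Of the 9 alternative settings, the 3 that change the floor leave the ratios of Ebf1, Ebf3, Zfp423 and Zfp521 as they are, since their signals lie above each of these floors. Under the settings that could change them, the ratios of Ebf1 and Ebf3 were at least 2-fold, from 1.14 to 1.74 (log2) for Ebf1 and from 1.64 to 2.22 for Ebf3. Zfp423 ranged from 0.62 to 1.18 and was under 2-fold only with the pseudocount. Zfp521 ranged from 0.49 to 1.05 and passed 2-fold only as a mean over its probe sets. Ebf2 ranged from -0.42 to 0.28 and had no settled direction. The 0.28 was its mean over probe sets, the only setting with a positive value. In that mean 1449101_at, below the floor on both arrays, enters at 0.42 from the floors alone.

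**Figure D4:**
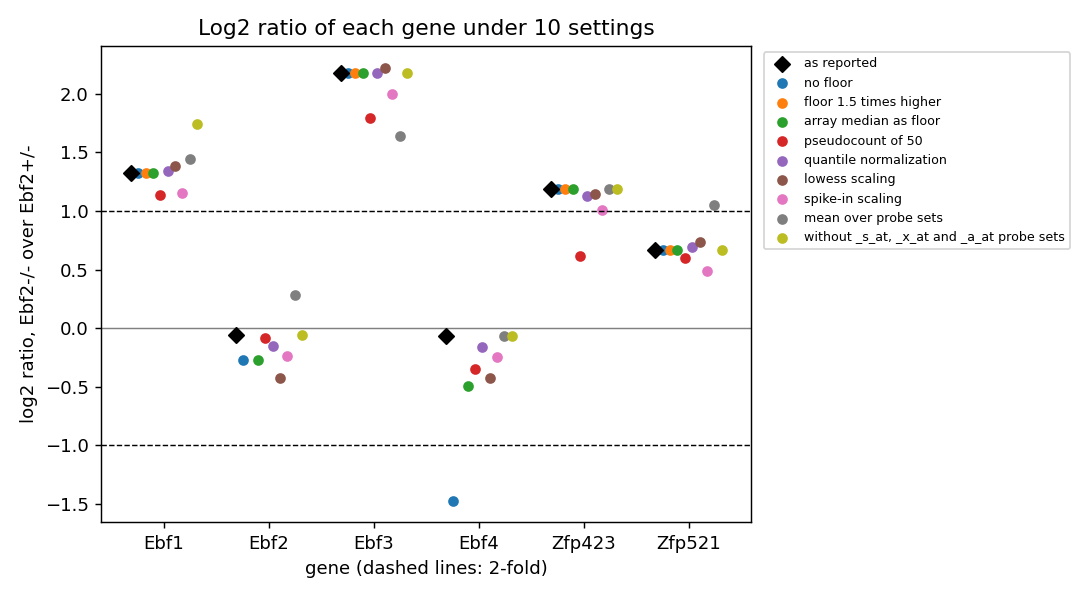
Log2 ratio of Ebf2-/- over Ebf2+/- of each gene as reported (diamonds) and under 9 alternative settings (circles), with dashed lines at 2-fold. The settings that change the floor stand beside the diamonds of Ebf1, Ebf3, Zfp423 and Zfp521, at the same height. Ebf1 and Ebf3 lie above the upper line under the other settings. Ebf2 lies on both sides of 0, above it only as a mean over probe sets. Ebf2 and Ebf4 have no point for the higher floor, which neither reached.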

How the data were processed

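The deposited intensity values are the authors' linear signals, made with MAS5 (no version stated) per the submitters' processing notes. The 2% trimmed mean was 100.0 on both arrays, so a shift common to most genes would not show. MAS5 detection calls were not used. Genotypes came from the sample labels, and gene symbols from the platform annotation: of 45101 probe sets 34958 had 1 symbol, 932 several and 9211 none, and only the first were used. A gene took its probe set of highest mean log2 signal. Of the list genes called below the floor by it, only Lepr had another probe set above a floor. Signals under the floor were raised to it for the log2 ratio, and a fold against a floor is written "at least". A probe set below the floor on both arrays thus had a log2 ratio of 0.42 from the floors alone, which pulls a mean over probe sets towards it. The spread between probe sets of 1 gene had a pooled SD of 0.44 (log2) over 4119 genes and leaves out variation between animals. Precision is limited by the number of arrays. Motifs were searched in RefSeq promoter sequences. Proteins were not analysed here. Python 3.11.15, pandas 2.3.3 and statsmodels 0.14.6 were used, and the procedure was tested on simulated data. The simulated log2 changes were 2 and 3 in either direction, so that test does not cover changes near 2-fold.

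The 6 genes, the 7 lists, the floor and the 2-fold size were chosen with earlier results of these data known. Named from each list were members at least 2-fold apart or, where none was, the brightest; other list genes were named after their values were seen. The alternatives were no floor, a floor 1.5 times higher, the array median as floor, a pseudocount of 50, quantile, lowess and spike-in scaling (18 probe sets), the mean over probe sets, and leaving out probe sets ending in _s_at, _x_at or _a_at.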

Additional observations from a re-analysis of the deposited data

How the results depend on the processing

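Across the 9 alternatives, 80 values stayed within the spread between probe sets (log2 0.44), or within 1.5 times for counts and shares. They cover the 6 genes, their counts and the share of all measured genes at least 2-fold higher. These limits take in a fall from 9 to 6 probe sets of the group at least 2-fold higher, without those ending in _s_at, _x_at or _a_at. As means over probe sets, they also take in Zfp521 passing 2-fold (1.05) and Ebf2 changing sign (0.28). Of the 80 values, 35 were identical to the reported value. A change of floor, for example, does not touch signals above each floor, and so is no check of them. The 6 that moved further were the following. With a pseudocount of 50, Zfp423 had a log2 ratio of 0.62, 5 rather than 9 probe sets of the group were at least 2-fold higher (4 of Ebf1 and the brightest of Ebf3), and 2.38% of measured genes were. As a mean over probe sets, Ebf3 was at 1.64. With no floor, Ebf4 was at -1.47, from a knockout signal of 8.998 in the range of background, and 1 probe set of the group (Ebf4) was at least 2-fold lower. With the floor 1.5 times higher, Ebf2 and Ebf4 were not measured and have no value. The ratios of Ebf1, Ebf3 and Zfp423 kept their direction under each alternative. Scaling to the spike-in transcripts, whose mean log2 ratio was 0.18 ± 0.15 (SD over 18 probe sets), moved the median of genes above the floor on both arrays from 0.00 to -0.17 and the shares of measured genes at least 2-fold higher and lower from 6.30% and 3.46% to 4.48% and 5.30%; under it 9 probe sets of the group were still at least 2-fold higher. No paired analysis was possible because there was 1 array per genotype. Signals near the floor limit Ebf2 and Ebf4.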
